A study of Mus musculus with 8 samples.

Results

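The transcripts of the mitochondrial genome were described in 8 murine prostate tumors. All genes whose name starts with mt- in the deposited count tables were taken as members, which gave 37 genes of the 38115 listed: 13 mRNAs, 2 rRNAs and 22 tRNAs. RNA sequencing had been performed on 4 primary and 4 metastatic Myc-CaP tumors, in order to compare primary with metastatic disease. The Myc-CaP cell line comes from a mouse prostate tumor driven by a Myc transgene under a probasin promoter, which responds to androgen. Its androgen sensitive (AS) and castrate resistant (CR) lines were injected into the anterior prostate lobes of male FVB mice. The mice were either intact or surgically castrated beforehand. Each group of 4 held 2 AS and 2 CR tumors, called AS1, AS2, CR1 and CR2 in accession order, so that equal names carry no pairing. The metastases are labelled as matched, with no word on which primary tumor each belongs to. The ages of the mice are not given, each phenotype rests on transplants of a cultured line, and the organ that each metastasis was taken from is not given. Nothing in the labels says whether the primary tumors, or the metastases, came from separate mice. A matched metastasis may share a mouse with a primary tumor of its phenotype, so the 4 AS or 4 CR tumors may come from fewer mice. All tests treated the tumors as independent, so p-values measure the spread between these tumors only.

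Mouse mitochondrial DNA is a small circle with no introns. Both of its strands are transcribed into long precursors, and the tRNAs, which lie between most of the other genes, are cut out so that the mRNAs and rRNAs between them are released. The 13 mRNAs encode subunits of the respiratory chain and of ATP synthase, while all proteins that copy, process and translate these RNAs come from nuclear genes. Of the 37 genes, 28 have the sequence of the strand labelled + in the annotation, here called heavy-strand genes after the strand that serves as template, and 9 are light-strand genes, namely 8 tRNAs and mt-Nd6.

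Sequences of the tRNA genes are shown because counts on them differed sharply by strand. The first 5 are the tRNA genes that passed the filter on low counts, all on the light strand, and the last 3 are heavy-strand genes with no count in any tumor. Each runs 5′ to 3′ along the tRNA, the anticodon is in capitals, and sequences and positions are those of GENCODE M21 on mm10 (GRCm38).
mt-Tn, asparagine tRNA, chrM:5089-5159, minus strand: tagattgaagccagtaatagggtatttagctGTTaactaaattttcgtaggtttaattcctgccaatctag
mt-Tc, cysteine tRNA, chrM:5192-5257, minus strand: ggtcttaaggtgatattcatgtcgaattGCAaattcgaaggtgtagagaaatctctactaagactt
mt-Ty, tyrosine tRNA, chrM:5260-5326, minus strand: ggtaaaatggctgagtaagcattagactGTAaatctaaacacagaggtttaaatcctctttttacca
mt-Ts1, serine tRNA, chrM:6870-6938, minus strand: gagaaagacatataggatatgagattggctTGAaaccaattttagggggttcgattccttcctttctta
mt-Te, glutamate tRNA, chrM:14071-14139, minus strand: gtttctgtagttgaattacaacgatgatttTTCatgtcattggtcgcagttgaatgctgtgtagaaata
mt-Tf, phenylalanine tRNA, chrM:1-68, plus strand: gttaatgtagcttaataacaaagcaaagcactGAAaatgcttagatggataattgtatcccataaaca
mt-Tk, lysine tRNA, chrM:7700-7764, plus strand: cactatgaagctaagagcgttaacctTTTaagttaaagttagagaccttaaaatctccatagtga
mt-Tr, arginine tRNA, chrM:9808-9875, plus strand: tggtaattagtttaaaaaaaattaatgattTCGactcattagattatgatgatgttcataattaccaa

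Total counts per tumor ranged from 20905806 to 91886163. The libraries had been made from total RNA after depletion of ribosomal RNA. Whether this step was meant to remove mt-Rnr1 and mt-Rnr2 is not stated, so their counts may be what it left behind. The epithelial and tumor markers Krt8, Krt18, Epcam, Hoxb13 and Myc were counted, with a summed level of 52.8 to 819 counts per 1000000 of the total count (CPM). Krt8 made up most of it, Hoxb13, a prostate homeobox gene, had 5.06 to 51.0 CPM and Myc 4.08 to 7.18 CPM. The epithelial markers Krt18 and Epcam were nearly absent, at no more than 0.446 and 0.284 CPM, and Epcam had no count in primary CR2. Primary CR2, metastatic CR1 and metastatic CR2 stood apart from the other 5 tumors in the make-up of their counts. Lars2, the gene of mitochondrial leucyl-tRNA synthetase, took 8.53%, 9.54% and 9.39% of the total count in these 3 tumors and at most 0.140% in the others. It is given apart because the gene can take reads of rRNA, and the source of its counts was not tested. Nuclear rRNA genes took 0.571% to 0.753% in the same 3 tumors and 0.0262% to 0.0788% in the others. Metazoa_SRP genes, copies of the 7SL RNA of the signal recognition particle, took 1.48% to 2.41% against 7.21% to 12.6%. Primary CR1 lay with the 4 AS tumors in all of these values. It lay with the CR tumors in other values, with Fgb, a fibrinogen chain, at 94.3 CPM (AS 4120 to 10299, other CR 86.3 to 1594 CPM) and a summed epithelial and tumor marker level of 819 CPM (AS 52.8 to 215, other CR 225 to 387 CPM). The 2 count ratios tested and the calls of members between CR and AS tumors are also given without it. Most other CR results include it.

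The 37 genes together took 18.9%, 14.8%, 4.85% and 28.3% of the total count in the primary tumors AS1, AS2, CR1 and CR2, respectively. The share was 17.8%, 14.4%, 25.4% and 12.9% in the metastatic tumors in this order. The groups overlapped, at 16.7% ± 9.73 (SD, n = 4) in primary and 17.6% ± 5.56 in metastatic tumors, and at 16.5% ± 2.23 in AS and 17.9% ± 10.9 in CR tumors. The AS tumors were close to each other, and the highest and the lowest share of the series were both found in CR primary tumors. In bulk tumors, fewer cells of a type and less RNA per cell cannot be told apart.

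Most of this share, and most of its variation, was rRNA. The rRNA share of the total count was 14.7%, 11.8%, 2.53% and 23.8% in primary AS1, AS2, CR1 and CR2, and 14.1%, 11.5%, 21.8% and 10.4% in metastatic AS1, AS2, CR1 and CR2. The mRNA share was 4.27%, 2.97%, 2.32% and 4.50% in the primary tumors and 3.65%, 2.84%, 3.55% and 2.54% in the metastatic tumors, in the same order. The mRNA share thus stayed within a narrower range than the rRNA share, and neither separated the groups. With mRNA counts as the base, there were 3.43, 3.98, 1.09 and 5.30 rRNA counts per mRNA count in primary tumors and 3.87, 4.06, 6.15 and 4.10 in metastatic tumors. Primary CR1 was the tumor in which rRNA and mRNA counts were nearly equal. The tRNAs took at most 7.22 CPM in any tumor.

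**Figure D1:**
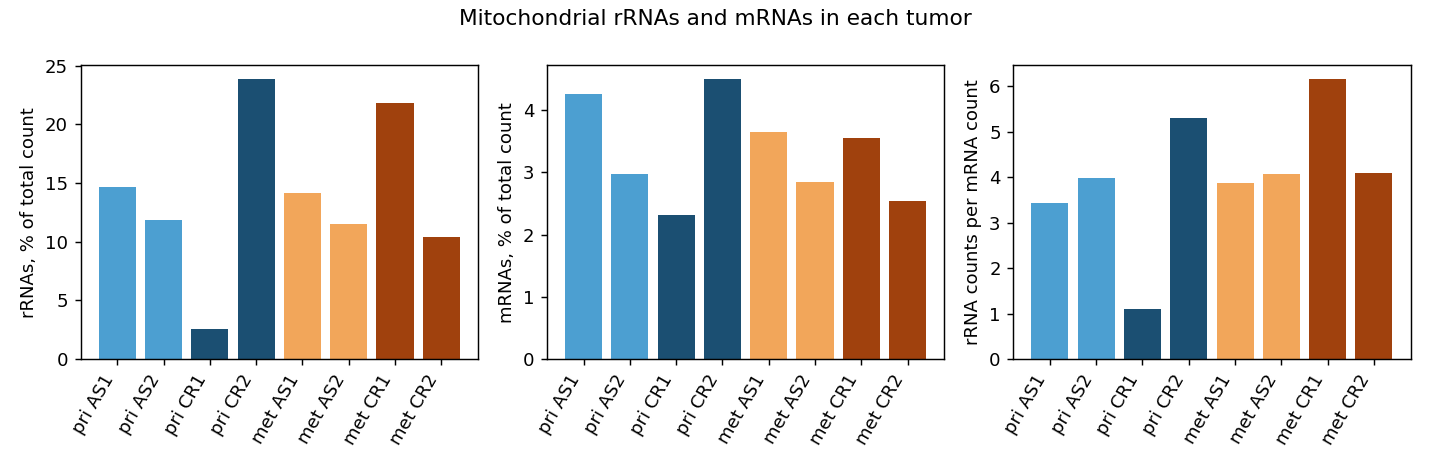
Bars give, for each of the 8 tumors (pri, primary; met, metastatic), the mitochondrial rRNAs and mRNAs as a percentage of the total count and the number of rRNA counts per mRNA count. The rRNA share runs from 2.53% to 23.8% and the mRNA share from 2.32% to 4.50%, with no group apart from the other.

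The 2 rRNAs varied by different amounts. mt-Rnr1 (ENSMUSG00000064337, chrM:70-1024) encodes the 12S rRNA of the small subunit of the mitochondrial ribosome, and mt-Rnr2 (ENSMUSG00000064339, chrM:1094-2675) the 16S rRNA of the large subunit, and both are cut from the same precursor. mt-Rnr1 had 20797, 12552, 1273 and 55413 CPM in primary AS1, AS2, CR1 and CR2, and 12347, 10969, 54207 and 29742 CPM in metastatic AS1, AS2, CR1 and CR2. mt-Rnr2 had 125700, 105641, 24025 and 182836 CPM in the primary and 129125, 104388, 164088 and 74330 CPM in the metastatic tumors. From the lowest to the highest tumor, mt-Rnr1 differed 43.5-fold and mt-Rnr2 7.61-fold. Both were lowest in primary CR1 and highest in primary CR2, tumors that share a label.

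The count of mt-Rnr2 per count of mt-Rnr1 was 6.04, 8.42, 18.9 and 3.30 in primary tumors and 10.5, 9.52, 3.03 and 2.50 in metastatic tumors. The lowest 3 ratios were those of primary CR2 and the CR metastases, the 3 tumors with abundant Lars2 and nuclear rRNA counts, and the highest was that of primary CR1. Whether the removal of rRNA differed between these libraries was not tested. The ratio did not pass an exact two-sided permutation test between metastatic and primary tumors (difference -2.78, p = 0.571) or between CR and AS tumors (difference -1.68, p = 0.771), with n = 4 per group and a smallest possible p of 0.0286. Without primary CR1, the difference between metastatic and primary tumors turned to 0.46. Without it the CR-AS difference was -5.67 (exact permutation p = 0.0571), and the 3 CR tumors left were below every AS tumor. Primary CR1 was singled out after its values were seen, so this p cannot decide whether CR and AS tumors differ. On all 8 tumors such tests were made for 2 ratios and 2 comparisons, 4 in all, and the adjusted p was 0.762 and 0.771. Tests without primary CR1 came on top of these and were not adjusted.

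Levels of the mRNAs were compared per kilobase of gene. mt-Co3, a core subunit of cytochrome c oxidase (complex IV), was highest, with a mean of 12083 CPM per kb over the 8 tumors and a range of 7293 to 14639. mt-Co1, the catalytic subunit of the same enzyme, followed with 5684 CPM per kb (4171 to 7314), and mt-Atp8, a small subunit of ATP synthase, with 5288 CPM per kb (2069 to 12626). The spread of mt-Atp8 over the tumors covered the whole range of mt-Co1, so their order did not hold in each tumor. mt-Co2 (4536) and mt-Atp6 (4553 CPM per kb) lay next to them.

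By their mean over the 8 tumors, the lowest mRNAs were 3 subunits of NADH dehydrogenase (complex I), namely mt-Nd2, mt-Nd6 and mt-Nd4l. In primary CR2, metastatic CR1 and metastatic CR2, mt-Nd5 was below mt-Nd2 and mt-Nd6, at 606, 525 and 461 CPM per kb. mt-Nd2 had 577, 183, 115 and 1041 CPM per kb in primary AS1, AS2, CR1 and CR2, and 260, 191, 548 and 505 in metastatic AS1, AS2, CR1 and CR2. mt-Nd6 had 582, 176, 140 and 664 CPM per kb in the primary and 220, 210, 542 and 553 in the metastatic tumors. These ranges overlapped nearly completely, so mt-Nd2 and mt-Nd6 could not be ordered. mt-Nd4l was far below all others, with 21.1, 4.72, 3.37 and 29.5 CPM per kb in primary and 6.88, 4.98, 16.7 and 11.9 in metastatic tumors. Along the genome, the level fell from mt-Nd1 to its neighbor mt-Nd2 in every tumor, by a ratio per kb of 4.28 to 12.2.

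**Figure D2:**
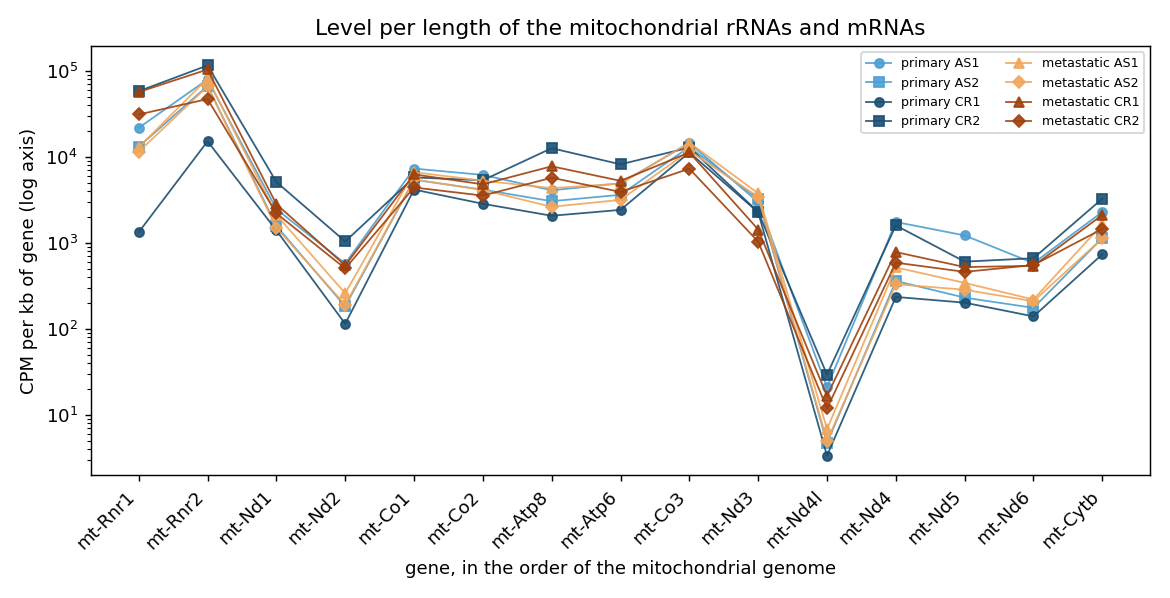
Level per length (CPM per kb, log axis) of the 2 rRNAs and 13 mRNAs in genome order, with a line for each tumor. mt-Rnr2 is highest and mt-Co3 leads the mRNAs in each of the 8 tumors, and mt-Nd4l is lowest in every tumor at 3.37 to 29.5 CPM per kb.

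By enzyme, complex IV mRNAs took 63.1%, 72.3%, 74.4% and 50.4% of the mRNA count in primary AS1, AS2, CR1 and CR2, and 69.4%, 72.2%, 61.4% and 58.9% in metastatic AS1, AS2, CR1 and CR2. The 2 ATP synthase mRNAs (complex V) took 9.83%, 10.4%, 8.95% and 18.1% in the primary and 11.5%, 9.49%, 14.6% and 15.1% in the metastatic tumors. Again primary CR2 and the CR metastases lay on one side, at 14.6% to 18.1%, and the other 5 tumors at 8.95% to 11.5%. Complex I took 12.9% to 23.2% and mt-Cytb, the only mitochondrially encoded subunit of complex III, 3.65% to 8.32%.

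The same 3 tumors differed from the other 5 in the share of several mRNAs. It was higher in them for mt-Nd1, mt-Nd2, mt-Atp8 and mt-Atp6 and lower for mt-Co1, mt-Co3 and mt-Nd3, of which mt-Atp8 and mt-Nd3 are given. Of the mRNA counts per kb, mt-Atp8 held 21.3%, 17.6% and 18.1% in primary CR2, metastatic CR1 and metastatic CR2, and 7.42% to 9.70% in the other tumors. mt-Nd3, a complex I subunit, held 3.86%, 3.24% and 3.27% in the same 3 tumors and at least 6.09% in the others. The tumors with a high mt-Atp8 share thus had a low mt-Nd3 share, and primary CR1 was with the AS tumors for both. These values were singled out after they were seen, they were not tested, and the part of library make-up in them was not tested.

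**Figure D3:**
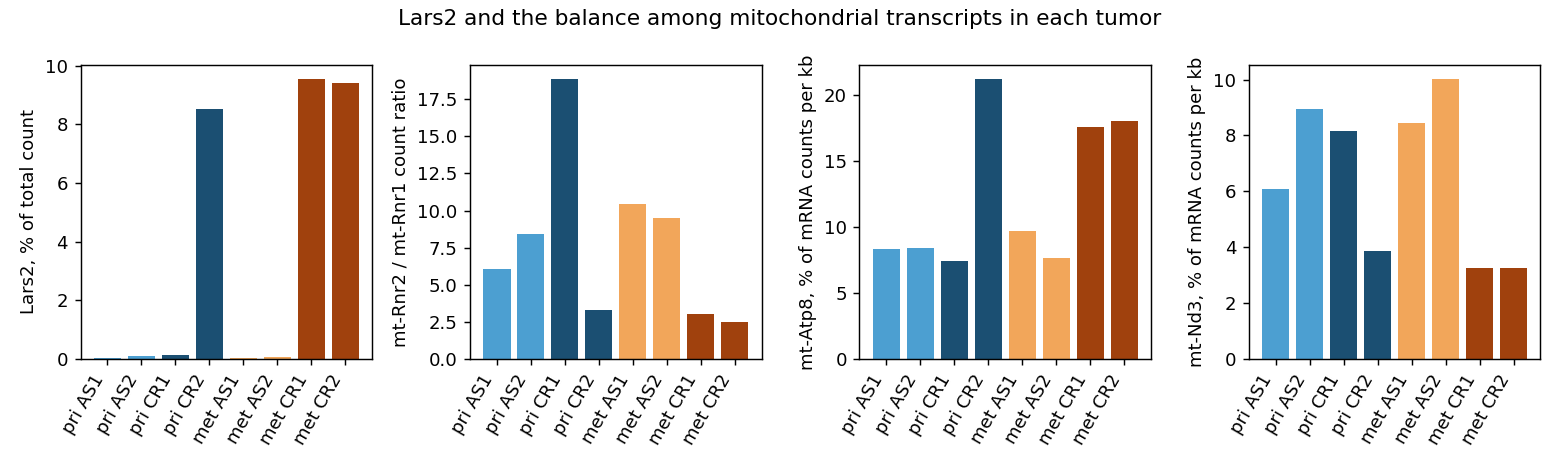
Bars give, per tumor, Lars2 as a percentage of the total count, the mt-Rnr2 to mt-Rnr1 count ratio, and mt-Atp8 and mt-Nd3 as a percentage of the mitochondrial mRNA counts per kb. Primary CR2 and the CR metastases have Lars2 at 8.53% to 9.54%, ratios of 2.50 to 3.30, mt-Atp8 at 17.6% to 21.3% and mt-Nd3 at 3.24% to 3.86%.

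Levels between mitochondrial mRNAs depend on how reads were assigned, because the nuclear genome holds copies of mitochondrial DNA. The paper states that only reads matching a single place, with up to 2 mismatches, were kept. Whether this holds for the deposited counts was not tested. Among annotated transcripts, 13 pseudogenes matched windows of read length of a mitochondrial gene with up to 2 mismatches, 7 of them on chromosome 1 and 3 on chromosome 2. Of these 13 pseudogenes, 7 were listed in the count tables. All windows of mt-Co3 matched such a copy, as did 99.8% of those of mt-Co2 and of mt-Atp6, 99.6% of mt-Nd3, 99.5% of mt-Nd4l, 70.6% of mt-Co1, 60.9% of mt-Nd4, 11.8% of mt-Nd2, 9.05% of mt-Nd5 and 1.67% of mt-Nd6. mt-Rnr1, mt-Rnr2, mt-Nd1, mt-Atp8 and mt-Cytb had none. Nevertheless mt-Co3 held 5718 to 11477 CPM, with its copy Gm28437 not listed, while mt-Nd4l, whose copy Gm10222 was listed, held at most 8.75 CPM.

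The following stretches show the copies with which 2 mRNAs were counted side by side, each in the direction of the mitochondrial gene and with differing bases in capitals. The first pair is the 60-base stretch of mt-Co1 and Gm13340 with the most differences, and the second is the start of mt-Nd4l and Gm10222, which has none.
mt-Co1, chrM:5787-5846, plus strand: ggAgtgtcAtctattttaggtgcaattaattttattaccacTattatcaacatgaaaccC
Gm13340, chr2:22589129-22589188, minus strand: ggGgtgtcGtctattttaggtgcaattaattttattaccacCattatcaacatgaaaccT
mt-Nd4l, chrM:9877-9936, plus strand: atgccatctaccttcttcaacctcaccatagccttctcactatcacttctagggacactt
Gm10222, chr1:24612641-24612700, minus strand: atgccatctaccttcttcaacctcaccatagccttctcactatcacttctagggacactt

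Gm10222 was identical to mt-Nd4l over the 294 bases of the pseudogene and had 17.4 to 26.6 counts per count of mt-Nd4l. With both counts added, the level over mt-Nd4l was 84.6 to 628 CPM per kb, which was below both mt-Nd2 and mt-Nd6 in every tumor. Gm13340 (chr2:22588103-22589647) differed from mt-Co1 at 37 of 1545 bases and had 4065 to 6853 CPM. Its count was 0.606, 0.583, 0.646 and 0.593 per count of mt-Co1 in primary AS1, AS2, CR1 and CR2, and 0.604, 0.594, 0.619 and 0.596 in metastatic AS1, AS2, CR1 and CR2. The ratio was nearly constant over the 8 tumors. Gm13341, a copy of mt-Co2, had 1493 to 4536 CPM and varied more, with 0.613 to 1.24 counts per count of mt-Co2 and its 3 highest ratios in primary CR2 and the CR metastases. Counts of mt-Co1, mt-Co2 and mt-Nd4l are therefore uncertain, since part of their reads may be counted on a copy or the reverse. Those of mt-Co3, mt-Atp6, mt-Nd3 and mt-Nd4 are uncertain too, since most of their windows matched a copy that was not listed.

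Overlaps between neighboring genes add to this for 2 pairs. Of the pairs shown, the end of mt-Atp8 and the start of mt-Atp6 share 43 bases, and the end of mt-Nd4l and the start of mt-Nd4 share 7 bases. Both are read in different frames from the same RNA and are printed with the shared bases in capitals and 10 bases on each side.
mt-Atp8/mt-Atp6, chrM:7917-7979, plus strand: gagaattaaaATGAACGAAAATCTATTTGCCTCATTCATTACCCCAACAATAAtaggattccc
mt-Nd4l/mt-Nd4, chrM:10157-10183, plus strand: acctactacaATGCTAAaaattattct

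In the comparison of metastatic with primary tumors, none of the mitochondrial transcripts tested was called, which does not show that they were unchanged. All 13 mRNAs, both rRNAs and 5 of the 22 tRNAs passed the filter on low counts, and none of these 20 passed edgeR's quasi-likelihood test after Benjamini-Hochberg adjustment (adjusted p of 0.997 or more, n = 4 per group). None of the 20 had an unadjusted p under 0.05 either, DESeq2 called none, and for none did the CPM of the 2 groups lie apart, as they did for 1.26% of all genes tested. The same test called 0 of all 17104 genes (0%), and 2.68% of them had an unadjusted p under 0.05. The log2 fold change was negative for 13 of 13 mRNAs, with a median of -0.26 against -0.029 over all genes tested. This direction rested on single tumors, since it was positive for 9 of the 13 without primary CR2, where the median was 0.16, and with total counts as the only scaling it was negative for 12.

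Of the mRNAs, the smallest p among negative fold changes belonged to mt-Nd4 (log2 fold change -0.92, SE 0.67) and mt-Nd5 (-0.54, SE 0.57), both subunits of complex I. mt-Nd4 had 2415, 498, 325 and 2202 CPM in primary AS1, AS2, CR1 and CR2, and 717, 457, 1080 and 813 CPM in metastatic AS1, AS2, CR1 and CR2. mt-Nd5 had 2230, 422, 369 and 1106 CPM in the primary and 626, 522, 957 and 841 CPM in the metastatic tumors. For both, primary AS1 and CR2 were above every metastatic tumor and primary AS2 and CR1 below all or all but 1 of them, so the groups overlapped. The difference for mt-Nd5 was 0.061 without primary AS1. The rRNAs differed by less than their error (mt-Rnr1 0.14, SE 0.98, and mt-Rnr2 0.019, SE 0.62).

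Between CR and AS tumors, with condition as a covariate, the fold changes were larger but none of the 20 transcripts passed the adjusted threshold, while 12.2% of all 17104 genes tested did. mt-Nd3, of whose windows 99.6% matched a nuclear copy, came nearest and was lower in CR tumors. It had 1037 and 1130 CPM in the primary and 1312 and 1194 CPM in the metastatic AS tumors, against 791 and 798 CPM in the primary and 499 and 360 CPM in the metastatic CR tumors. These groups did not overlap, and mt-Nd3 was the only one of the 20 of which this was true. Of all genes tested, 17.0% did not overlap and 11.4% lay lower in every CR tumor. The log2 fold change was -0.84 (SE 0.30), with an unadjusted p of 0.0201 by edgeR's quasi-likelihood test and 0.0999 after adjustment by Benjamini-Hochberg. It was the only member with an unadjusted p under 0.05, beside 28.8% of all genes. DESeq2 called mt-Nd3 alone of the members (adjusted p = 0.0389), in a fit that called more of all genes than edgeR did (count given below). The difference was -1.37 within metastatic and -0.30 within primary tumors, and the test of this interaction gave -1.10 (SE 0.49, unadjusted p = 0.0560 and adjusted p = 0.964 by edgeR's quasi-likelihood test).

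Transcripts with positive values were led by mt-Atp8 (log2 fold change 1.22, SE 0.55), mt-Nd2 (1.13, SE 0.65) and mt-Nd1 (0.78, SE 0.45), with mt-Rnr1 at 1.57 (SE 0.91). mt-Atp8 had 834, 623, 884 and 537 CPM in primary AS1, primary AS2, metastatic AS1 and metastatic AS2, and 422, 2576, 1586 and 1168 CPM in primary CR1, primary CR2, metastatic CR1 and metastatic CR2. Of the CR tumors, 3 were above every AS tumor and primary CR1 was below all of them. mt-Nd1, another complex I subunit, had 2361, 1509, 2033 and 1435 CPM in the AS and 1340, 4891, 2697 and 2112 CPM in the CR tumors, in the same order. mt-Nd2, with the levels per kb given above, was also lowest in primary CR1. These values rested in large part on primary CR2. Without it they were 0.41 for mt-Atp8, 0.33 for mt-Nd2, 0.17 for mt-Nd1 and 0.60 for mt-Rnr1, none past the threshold, and the median over the 13 mRNAs was -0.12 in place of 0.46.

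Without primary CR1, 4 of the 20 transcripts passed the adjusted threshold of edgeR's quasi-likelihood test. These were mt-Rnr1 (log2 fold change 2.05, SE 0.36, adjusted p = 0.00683), mt-Nd2 (1.53, SE 0.37, adjusted p = 0.0223), mt-Atp8 (1.54, SE 0.33, adjusted p = 0.0147) and mt-Nd6 (1.34, SE 0.36, adjusted p = 0.0314). In that fit 4133 of 17393 genes were called in all (23.8%). The calls thus rested on whether primary CR1 was kept, and the part of library make-up was not tested. Primary CR1 was singled out after its values were seen, so the calls cannot decide whether CR and AS tumors differ. Fold changes of mt-Co1 (-0.098, SE 0.31), mt-Co2 (-0.070, SE 0.34) and mt-Co3 (-0.18, SE 0.30) were within their errors. mt-Co3 had 11390, 10240, 11477 and 9223 CPM in the AS and 8826, 10069, 8840 and 5718 CPM in the CR tumors.

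**Figure D4:**
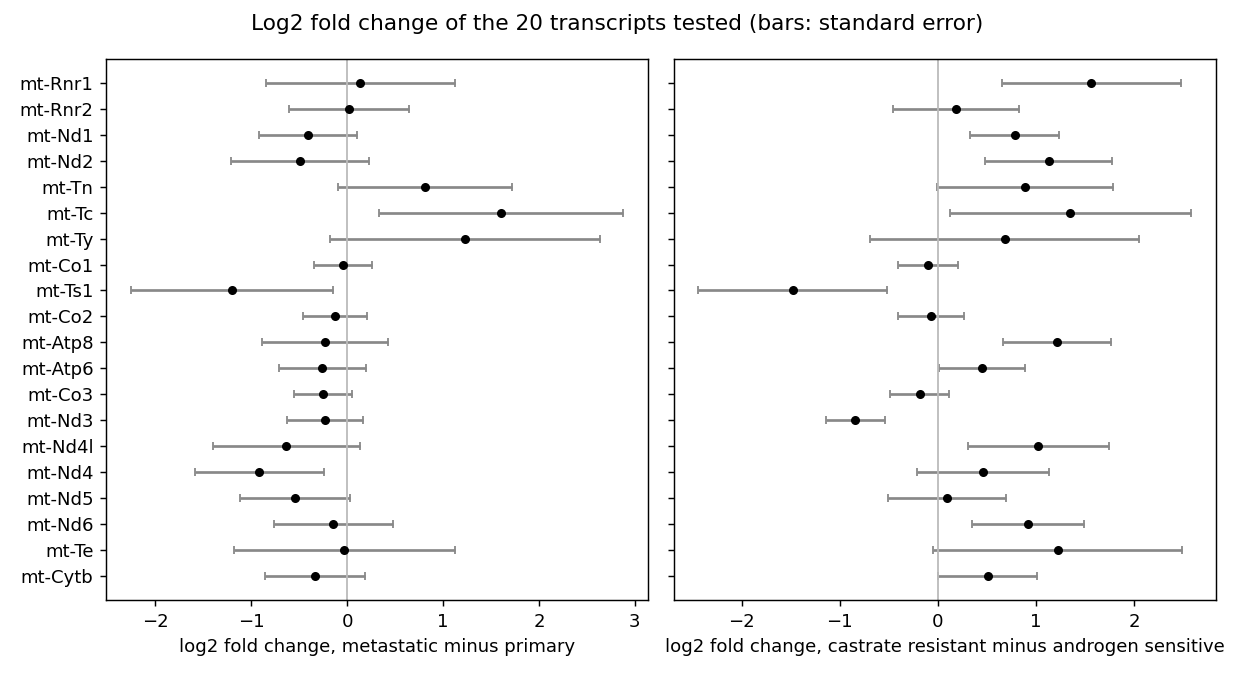
Points give the log2 fold change and bars the standard error of the 20 transcripts that passed the filter on low counts, for metastatic minus primary and for CR minus AS tumors (edgeR). In the first panel all 13 mRNAs lie below 0, of which 9 turn positive without primary CR2, and in the second mt-Nd3 and mt-Ts1 lie farthest below 0.

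The interaction of condition and phenotype was tested for 22 members, since mt-Tm and mt-Tp also passed the filter there. None passed the adjusted threshold or an unadjusted p under 0.05, and 0 of all 18889 genes were called (2.74% had an unadjusted p under 0.05). DESeq2 called none of the members and 2 genes in all. Without primary CR2, the log2 difference of fold changes of mt-Rnr1 was 5.77, against 0.95 with all tumors. In that fit primary CR1 was the only primary CR tumor, so no p is given.

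mt-Nd6 is the only mRNA of the light strand, and its gene overlaps the end of mt-Nd5 on the other strand. Counts of mt-Nd6 per count of mt-Nd5 were 0.136, 0.217, 0.182 and 0.209 in primary AS1, primary AS2, metastatic AS1 and metastatic AS2, and 0.197, 0.312, 0.294 and 0.341 in primary CR1, primary CR2, metastatic CR1 and metastatic CR2. Of the CR tumors, 3 were above every AS tumor and primary CR1 was within their range. The difference of 0.100 did not pass an exact two-sided permutation test (p = 0.0857, adjusted p = 0.343, smallest possible p 0.0286), and between metastatic and primary tumors it was 0.041 (exact permutation p = 0.486). Without primary CR1 the CR-AS difference was 0.130, with the smallest exact permutation p that 3 against 4 tumors allow (0.0286). This p was not adjusted, and it cannot decide whether CR and AS tumors differ, since primary CR1 was singled out after its values were seen. The libraries were stranded, but the strand setting of the counting is not given, so reads of mt-Nd6 and of RNA opposite to it cannot be told apart.

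Counts on tRNA genes were few. The 22 genes held 1098 counts over all 8 tumors, against 14956560 on the mRNAs. The tRNA genes are shorter than the sequenced reads. Counts were 297, 37, 197 and 19 in primary AS1, AS2, CR1 and CR2, and 201, 47, 293 and 7 in metastatic AS1, AS2, CR1 and CR2. In the primary and in the metastatic tumors alike, AS1 and CR1 held more counts than AS2 and CR2, and no group stood apart. Nuclear genes of at most 75 bases had 29.3, 8.11, 20.6 and 66.4 CPM in the primary and 12.1, 4.55, 259 and 23.6 CPM in the metastatic tumors, so counts on other short genes were also high in metastatic CR1.

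Of the tRNA counts, 87.3% fell on the 8 light-strand genes, all of which were counted. Of the 14 heavy-strand genes, 7 had no count in any tumor (mt-Tf, mt-Tk, mt-Tr, mt-Th, mt-Ts2, mt-Tl2 and mt-Tt), which allows a level of up to 0.0326 to 0.144 CPM per tumor (3 counts, counting error only). As for mt-Nd6, reads of a tRNA and of RNA opposite to it cannot be told apart. The most counted heavy-strand gene was mt-Tm, the methionine tRNA, with 107 counts, 72 of them in metastatic CR1. Metastatic CR1 was also the tumor with the smallest light-strand share, 70.0%.

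mt-Ts1, whose gene follows mt-Co1 on the other strand, took 35.2% of all tRNA counts. It had 148, 29, 85 and 25 counts in primary AS1, primary AS2, metastatic AS1 and metastatic AS2, and 88, 1, 11 and 0 in primary CR1, primary CR2, metastatic CR1 and metastatic CR2. In CPM, primary CR2 and metastatic CR2 were below every AS tumor, metastatic CR1 was level with metastatic AS2 at 0.27 CPM, and primary CR1 was again among the AS tumors. The log2 fold change was -1.48 (SE 0.96) between CR and AS and -1.20 (SE 1.05) between metastatic and primary tumors. Neither passed edgeR's quasi-likelihood test (adjusted p = 0.341 and 0.997 by Benjamini-Hochberg). The CR-AS value was -2.61 without primary CR1 and -0.92 without primary AS1, neither past the threshold. mt-Te had 71, 2, 12 and 14 counts in primary AS1, AS2, CR1 and CR2, and 12, 6, 52 and 6 in metastatic AS1, AS2, CR1 and CR2.

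The neighbors mt-Tn, mt-Tc and mt-Ty, whose genes lie within a cluster between mt-Nd2 and mt-Co1, had positive log2 fold changes in metastatic tumors, of 0.81 (SE 0.91), 1.60 (SE 1.28) and 1.23 (SE 1.41), none past the threshold. Without metastatic CR1, mt-Tn was at -0.47 and mt-Tc at -0.17. mt-Tc had 15, 2, 23 and 0 counts in primary AS1, AS2, CR1 and CR2, and 25, 4, 52 and 0 in metastatic AS1, AS2, CR1 and CR2. mt-Tn had 19, 3, 17 and 2 counts in the primary and 16, 9, 30 and 1 in the metastatic tumors, and mt-Ty 13, 0, 17 and 0 and 31, 0, 24 and 0. Primary CR2 and metastatic CR2 had at most 2 counts of each, and the metastatic and primary groups overlapped.

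**Figure D5:**
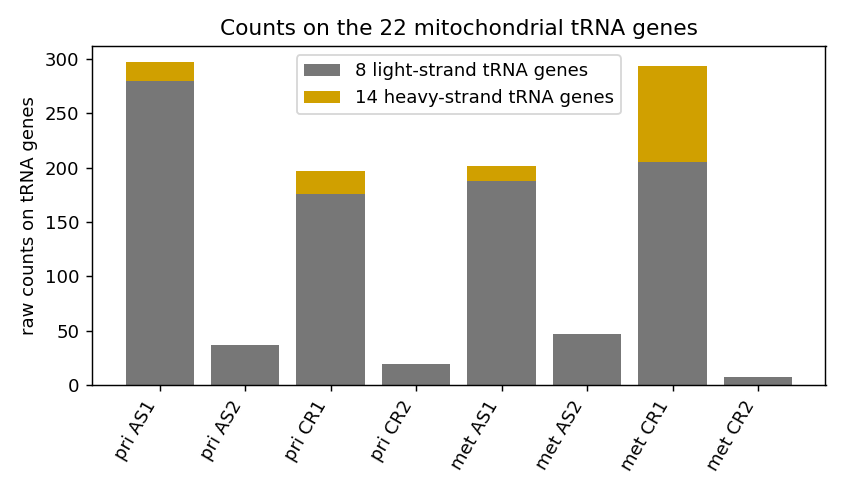
Stacked bars give the raw counts on the 8 light-strand and the 14 heavy-strand tRNA genes in each tumor. Totals run from 7 to 297, and heavy-strand counts are visible mainly in metastatic CR1, where they number 88.

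Nuclear genes that act on mitochondrial RNA were examined as 3 lists. Of 41 genes for mitochondrial transcription, RNA processing and decay, 40 were tested. None was called between metastatic and primary tumors, with 1 unadjusted p under 0.05 (Tbrg4, a FASTK-family RNA-binding protein, at -0.55) and a median log2 fold change of 0.011 against -0.029 over all genes. Between CR and AS tumors 2 of the 40 rose and 2 fell, beside 6.16% of all genes that rose and 6.01% that fell. Esrra, a nuclear receptor that drives genes of energy metabolism, fell by 1.83 on the log2 scale (SE 0.35, adjusted p = 0.0161 by edgeR's quasi-likelihood test), and Fastkd1, a mitochondrial RNA-binding protein, fell by 0.89. Trnt1, which adds the CCA end to tRNAs, rose (0.54, SE 0.14), as did Gabpa, a subunit of nuclear respiratory factor 2 (0.55, SE 0.14). The median of the 40 was -0.023.

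Of 75 mitochondrial ribosomal protein genes, none was called between metastatic and primary tumors, with no unadjusted p under 0.05 by edgeR. Between CR and AS tumors 3 rose and 2 fell, which is 6.67% called against 12.2% of all genes tested. Mrpl32 was at 0.57 and Mrpl40 at -0.76, and the median was -0.20 against -0.011 over all genes. Of 17 mitochondrial aminoacyl-tRNA synthetases, none was called between metastatic and primary tumors, with 1 unadjusted p under 0.05. Between CR and AS tumors only Lars2 passed the threshold, which is 5.88% of this list against 12.2% of all genes tested. Its log2 fold change was 7.04 (SE 1.26), and its high counts were in the tumors with abundant nuclear rRNA counts named above. Since Lars2 can take reads of rRNA, this value may not describe the mRNA of the synthetase, which was not tested.

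Markers of other cells were also summed. The 7 liver genes had 4125 to 10325 CPM in AS and 91.1 to 1600 CPM in CR tumors, almost all of it Fgb, while Alb (albumin) was at 0 to 3.64 CPM. The 7 muscle genes, which mark a tissue rich in mitochondria, had 0.763 to 15.8 CPM, and none of the 7 was at 0 in every tumor. The highest muscle sum was in primary CR1 and the lowest in primary CR2, the tumors with the lowest and the highest mitochondrial share. Single genes made up these sums, with Acta1 at 15.0 CPM in primary CR1. In metastatic AS1, with a sum of 14.9 CPM, Tnnt3 was at 13.3 CPM. The nuclear-retained RNAs Malat1 and Neat1 summed to 6155 to 7604 CPM in AS and 3505 to 6216 CPM in CR tumors. Primary CR1, with the lowest mitochondrial share, had the lowest sum (3505 CPM). Primary CR2, with the highest share, had the highest sum of the CR tumors (6216 CPM), and metastatic CR1, also with a high share, had 3895 CPM. Their part in the mitochondrial shares was not tested.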

How the data were processed

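RNA sequencing counts of 8 tumors were analysed. According to the paper, total RNA was extracted with TRIzol, ribosomal RNA was depleted and stranded paired-end libraries were prepared. It states that reads were mapped to mm10 with Bowtie and that those with a single location and at most 2 mismatches were kept. The submitters' processing notes list CASAVA 1.8.2, TopHat2 2.0 and GRCm38. The deposited values are raw counts per Ensembl gene, with no normalization. The counting tool, its strand setting and the annotation release are not given in the sources used here. The study gives n = 3 for primary tumors without saying which, so all 4 were used.

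Members were the 37 genes named mt-. The members and the lists were chosen with earlier results of these data known. Of the identifiers, 36343 were found in GENCODE M21, which gave positions, lengths, types and sequences. CPM are counts per 1000000 of the total count, which ranged from 20905806 to 91886163. The widest 95% Wilson interval of a share spanned 0.0354 percentage points and covers counting error only.

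Counts were tested in R 4.3.3 with edgeR 4.0.16 (filterByExpr, TMM factors, quasi-likelihood test, Benjamini-Hochberg adjustment over all genes tested, threshold 0.05). Metastatic were compared with primary tumors with no covariate, and CR with AS tumors with condition as a covariate. DESeq2 1.42.0 was an alternative. The fits were tested on simulated data. The 2 count ratios were compared by exact two-sided permutation in scipy 1.17.1. Windows of read length were matched to M21 transcripts with blastn 2.17.0, since no genome sequence was used here, and copies without an annotated transcript were therefore missed. Alternatives were other scalings, no filter, other covariates, each phenotype or condition alone, other denominators and each tumor left out. The count of nuclear copies added to the mRNA count was chosen after the data were seen.

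The genes given with the value of each tumor followed a rule: mt-Rnr1, mt-Rnr2, mt-Nd6, the 3 highest and 3 lowest mRNAs and the 3 highest tRNAs per kb, and the 3 members with the smallest p in each direction of each comparison. From each nuclear list the genes with the smallest p were named, and of the nuclear copies the 3 with the most counts. A result on 2 marker genes is not reported here.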

Additional observations from a re-analysis of the deposited data

Results flagged for a closer look

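In groups of 4 tumors, values were examined in which the highest or lowest tumor lay far from the other 3 by Dixon's criterion. Over 96 groups of values 8 such cases were found, and chance gives about 1 in 20. For 6 of the 8 the tumor was primary AS1, which lay above the other AS tumors. It had 20797 CPM of mt-Rnr1 (others 10969 to 12552), 302 CPM of mt-Nd6 (others 91.4 to 114), 6.25 CPM of mt-Nd4l (others 1.40 to 2.04), 2415 CPM of mt-Nd4 (others 457 to 717), 2230 CPM of mt-Nd5 (others 422 to 626) and 1.16 CPM of mt-Te (others 0.0292 to 0.155). Apart from mt-Rnr1, these genes lie next to each other in the second part of the genome, between mt-Nd3 and mt-Cytb. In metastatic tumors, CR1 had 6.15 rRNA counts per mRNA count, with 3.87 to 4.10 in the others. Among CR tumors, primary CR1 had 18.9 counts of mt-Rnr2 per count of mt-Rnr1, with 2.50 to 3.30 in the others.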

How the results depend on the processing

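No paired analysis was made because the labels call the metastases matched but do not say to which primary tumor. In accession order each metastasis follows a primary tumor of its phenotype, but the labels do not say that this order gives the pairs. In the metastatic-primary comparison 0 members were called under every alternative run. Signs there were not stable: mt-Rnr1 was -0.10 with phenotype as a covariate and -0.55 in AS tumors only (-0.66 to 1.35 with a tumor left out), mt-Rnr2 -0.017 in AS tumors only (-0.33 to 0.56), mt-Tn -0.23 in AS tumors only (-0.47 to 1.29), mt-Nd5 0.15 in CR tumors only (-0.84 to 0.061), and mt-Tc -0.17 to 2.16. The mt-Rnr2 to mt-Rnr1 ratio difference ran from -4.73 to 0.46. Between CR and AS tumors, 1 member was called by DESeq2, 8 of 30 with every gene of at least 1 count kept (3098 of 31875 genes in all), 1 in metastatic tumors only (mt-Nd6, log2 fold change 1.49) and 0 to 4 with a tumor left out. All genes called numbered 3544 by DESeq2, 1271 with total counts only, 4 in primary and 974 in metastatic tumors only, and 481 to 4133 with a tumor left out. mt-Rnr2 was -0.065 with total counts only (-0.64 to 0.54 with a tumor left out), and mt-Co3 ran from -0.38 to 0.021. In the interaction, 0 to 1 members and 0 to 82 genes were called with a tumor left out, 2 genes by DESeq2 and 217 with every counted gene kept. The CR-AS difference of the mt-Nd6 to mt-Nd5 ratio ran from 0.0816 to 0.130. The cause of these changes was not tested, except that fewer tumors entered some fits.

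Shares of the mRNA counts per length depended on the length used. Per window without a nuclear copy they were 43.8% for mt-Co2, 42.7% for mt-Atp6, 12.9% for mt-Nd3, 0.297% for mt-Co1, 0.140% for mt-Atp8, 0.0478% for mt-Nd4l, 0.0367% for mt-Nd1, 0.0275% for mt-Nd4, 0.0255% for mt-Cytb, 0.00763% for mt-Nd5, 0.00708% for mt-Nd2 and 0.00670% for mt-Nd6, since mt-Co2, mt-Atp6, mt-Nd3 and mt-Nd4l keep few such windows, and mt-Co3, with none, gave no value. With 0 mismatches, 97.6% of the windows of mt-Nd3, 30.7% of mt-Co1, 3.09% of mt-Nd2 and 0 of mt-Nd5 and mt-Nd6 had a copy.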

Other observations

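Nuclear copies of mitochondrial genes held 22.8 to 24.7 counts per 100 mitochondrial mRNA counts in the 4 primary tumors and 25.9 to 29.0 in the 4 metastatic tumors, so these groups did not overlap. The measure was singled out after its values were seen and was not tested. mt-Co3 per mt-Nd3 (both per kb) was 4.95 to 7.87 in the 4 CR tumors and 3.43 to 4.88 in the 4 AS tumors. These groups did not overlap, though primary CR1 (4.95) lay just above primary AS1 (4.88). The CR metastases were highest, at 7.87 and 7.04, and primary CR2 was at 5.60. This ratio was not tested.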
